A study of Mus musculus with 14 samples.

Results

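The genotype by microbead interaction asks, gene by gene, whether retinal microglia of APOE4 mice responded to a glaucoma model by a different amount than those of APOE3 mice. It is a difference of differences: the change from sham to microbead injection in APOE4, minus the same change in APOE3. All 14 libraries of the series enter it, chosen by label alone, so the members are 14 of 14. They fall into 4 groups of RNA from single retinas of mice aged 12 weeks: APOE E3/E3 with sham injection (4 libraries), APOE E3/E3 with microbead injection (3), APOE E4/E4 with sham injection (4) and APOE E4/E4 with microbead injection (3). Every group shares the same sort, in which CD11b+ Ly6c- cells that bind an antibody to Fcrls were collected, 100 to 600 from a retina, and 100 to 300 of them were lysed for SMART-Seq2 sequencing. The labels do not give the sex of the mice, how the APOE alleles were introduced, or the time between injection and collection. They also do not say whether the retinas came from separate animals, so p-values measure the spread between these samples, which may be partly technical.

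Microglia are the resident macrophages of the retina and brain. In undisturbed tissue they carry a homeostatic programme, kept by TGF-beta signalling, with the purinergic receptor P2ry12 and the membrane protein Tmem119 among its markers. Near dying neurons they lower it and take up a disease-associated state, described through the TREM2 receptor, its adaptor Tyrobp and secreted or lipid-linked proteins such as apolipoprotein E, osteopontin (Spp1) and galectin-3 (Lgals3). Microbeads injected into the front of the eye obstruct fluid outflow and raise pressure, which damages retinal ganglion cells. APOE, the gene of apolipoprotein E, has common human alleles that differ in their link to neurodegeneration.

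Estimated reads on genes ranged from 450981 to 727264 per library, of which 38.6% to 65.3% fell on 12 genes at satellite repeats, leaving 226122 to 446728 reads elsewhere. The number of reads limits precision. Microglial markers were present in every library: the summed level of the 11 markers lay between 13945 and 19027 CPM, a read count relative to the TMM-adjusted library total in the 8 sham libraries. It was 6856, 10585 and 11709 in APOE3 microbead and 14102 to 16551 in APOE4 microbead. Markers of monocytes and their descendants, 18 genes, all with at least 1 read, summed to 76.5 to 132 CPM over the sham libraries. They stood at 1733, 847 and 353 in APOE3 microbead 1, 2 and 3, and at 98.6, 253 and 105 in APOE4 microbead. In APOE3 microbead the most abundant of them was Fn1 (1017 reads), with 150 reads of the chemokine receptor Ccr2 and 4 of Ly6c2, the antigen the sort selects against. Rod photoreceptor markers, 20 genes, summed to 419 to 2730 CPM in APOE3 sham and 373 to 1065 in APOE3 microbead. In APOE4 they summed to 590 to 2167 CPM after sham and 444 to 970 after microbeads. Red blood cell markers were at or below 5.15 CPM in each library, and Hba-a2 and Hbb-bt had 0 reads. In bulk RNA, fewer cells of a type and less RNA per cell cannot be told apart. The mouse Apoe gene had 47 reads in all, at 0 to 8.13 CPM in the sham libraries, 12.2 to 16.0 in APOE3 microbead and 1.73 to 8.05 in APOE4 microbead, too few to test.

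Of 7605 genes tested with edgeR's quasi-likelihood test, 7 (0.092%) were called in the interaction at an adjusted p under 0.05, 4 above 0 (0.0526%) and 3 below (0.0394%). A value above 0 means that APOE4 lay higher after microbeads than the APOE3 response would give, through a smaller fall or a larger rise. Serpine2, Atp8a2, Hpgd and Gpr34 were above 0, and all 4 had fallen in APOE3. Fgr and Capg were below 0 and had risen in APOE3, while Zfp280d was below 0 and had fallen in APOE4. At an unadjusted p under 0.05 there were 621 genes (8.17%), 265 above 0 and 356 below. Within genotypes, the microbead effect was called for 5.15% of genes in APOE3 (269 higher and 123 lower) and 15 (0.197%) in APOE4. Between genotypes, 1 gene (0.0131%) was called among sham libraries and 44 (0.579%) among microbead libraries.

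The 7 calls rested on few libraries. No gene was called by edgeR without APOE4 sham 1 (549 genes at an unadjusted p under 0.05), without APOE4 sham 2 (573) or without APOE4 microbead 1 (594), where the lowest adjusted p was 0.0504, 0.0581 and 0.064. Without APOE3 microbead 3, 30 genes were called. Leaving out APOE3 sham 1 or APOE3 microbead 1 gave 3 calls, and leaving out APOE3 microbead 2 or APOE4 microbead 3 gave 4. DESeq2, which adjusted over 1117 genes, called 57 (5.1%), 20 above 0 and 37 below, and shared 4 of the 7, while the other 3 (Fgr, Capg and Hpgd) were given no adjusted p by it. Limma-voom called 6 (0.0789%) and shared 5. No setting turned the sign of any of the 7.

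Among genes with a small interaction p, the larger microbead effect lay mostly in APOE3. Of the 621 genes at an unadjusted p under 0.05, 467 (75.2%) had the larger microbead effect in APOE3, against 55.8% of all genes tested. The genotypes lay further apart after microbeads than after sham for 504 of the 621 (81.2%), against 57.9% of all genes. Both shares describe these libraries, since the same values enter the choice of the 621. For most pairs, replicates also differed more in APOE3 than in APOE4. The chi-square per degree of freedom was 4.62 to 6.43 in APOE3 microbead and 2.41 to 4.84 in APOE3 sham. It was 2.4 to 2.75 in APOE4 microbead and 2.17 to 2.66 in APOE4 sham. The part of this spread in the shares was not tested. Over all 7605 genes, Pearson's r between the microbead effects in the 2 genotypes was 0.23, and 0.44 over the 1898 genes with a mean of at least 50 CPM. The sham and microbead libraries of the 2 genotypes are separate samples, and genes are not independent replicates. The 269 genes called higher in APOE3 had a median log2 change of 1.23 there and 0.33 in APOE4, and 228 of them had the same sign in APOE4. For the 123 genes called lower in APOE3, the medians were -1.20 and -0.24, with the same sign for 100. A gene called in one genotype tends to show its larger value there, so these pairs of medians are a description.

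**Figure D1:**
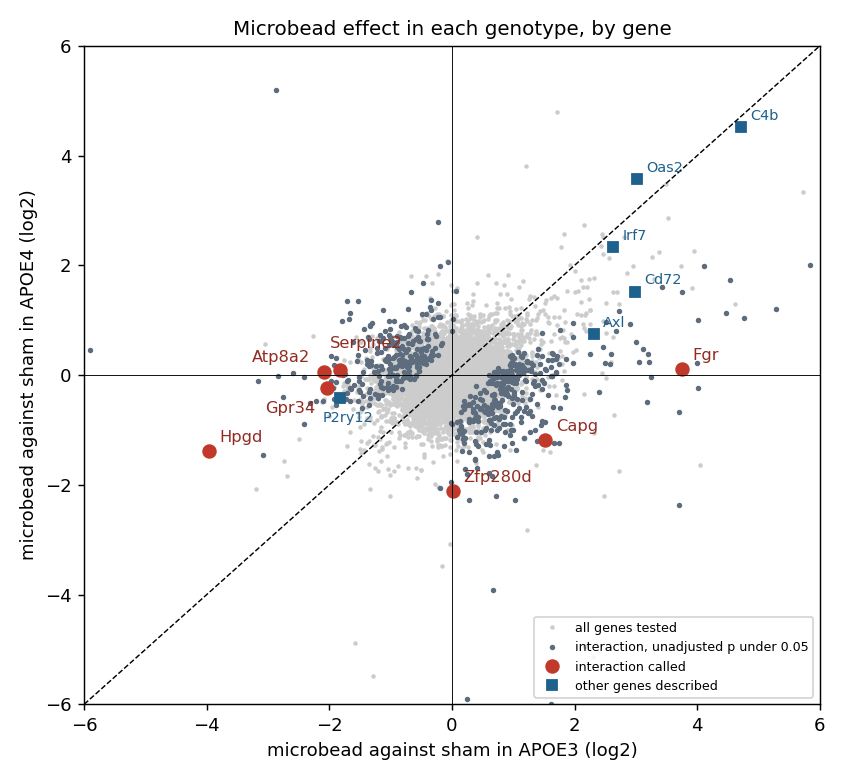
Each point is 1 of the 7605 genes tested, with its log2 microbead effect in APOE3 (x axis) and in APOE4 (y axis), and points on the dashed line have no interaction. The 7 called genes (red) lie off the line, 6 of them with the larger effect in APOE3, and C4b, Irf7 and Oas2 (blue) lie near it; 14 genes fall beyond the axes.

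Serpine2 encodes a secreted inhibitor of thrombin, plasminogen activators and other serine proteases (ENSMUSG00000026249, chromosome 1, 79794197 to 79861180 in GRCm38). Its level was 189, 246, 203 and 309 CPM in APOE3 sham, and 61.1, 51.2 and 90.9 in APOE3 microbead. In APOE4 it was 197, 222, 219 and 206 CPM after sham and 255, 165 and 254 after microbeads. The 3 APOE3 microbead libraries were thus the lowest of all 14, and no other pair of groups stood apart. It fell by 1.82 ± 0.24 (SE, log2) in APOE3 and was at 0.09 ± 0.22 in APOE4. The interaction was 1.91 ± 0.33 (95% interval 1.24 to 2.58, adjusted p = 0.0155). It missed the threshold in 9 of 27 alternative settings (adjusted p from 0.000101 to 0.989), among them the fits without APOE4 sham 1 (0.0504), APOE4 sham 2 (0.0581) and APOE4 microbead 1 (0.064).

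Atp8a2 encodes a flippase, a membrane pump that moves phosphatidylserine to the inner leaflet (ENSMUSG00000021983, chromosome 14, 59638540 to 60197179). It stood at 139, 105, 73.2 and 101 CPM in APOE3 sham and at 18.1, 17.8 and 39.2 in APOE3 microbead. APOE4 libraries had 75.4, 97.7, 119 and 121 CPM after sham and 135, 84.8 and 102 after microbeads. As for Serpine2, the APOE3 microbead libraries lay below all the others. The change was -2.08 ± 0.31 in APOE3 and 0.05 ± 0.26 in APOE4, and the interaction was 2.13 ± 0.41 (adjusted p = 0.0211). It lost its call in 14 of 27 alternatives (adjusted p from 0.000608 to 1.0), with values of 0.0599 to 0.134 without any 1 of APOE3 sham 1, APOE3 microbead 1 or 2, APOE4 sham 1 or 2, or APOE4 microbead 1 or 3. Of its reads 88.2% were on a transcript of 12886 bases that shares 2073 bases with 1 other annotated gene, so some reads may belong to either. Of 10 flippase and scramblase genes tested, Atp8a2 was the 1 called, and the list's median interaction was 0.10 (-0.08 with library totals as the scaling and -0.18 on log2 TPM). Tmem30a, the accessory subunit of these flippases, was at 0.45 ± 0.44 (adjusted p = 0.895).

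Hpgd encodes the enzyme that inactivates prostaglandins (ENSMUSG00000031613, chromosome 8, 56294585 to 56321043). Levels in APOE3 were 103, 105, 63.0 and 130 CPM after sham and 4.53, 6.68 and 7.13 after microbeads, the last resting on 12 reads in all. In APOE4 they were 77.2, 101, 81.8 and 86.8 after sham and 50.3, 24.9 and 25.9 after microbeads. It fell in both genotypes, by 3.97 ± 0.38 in APOE3 and by 1.38 ± 0.30 in APOE4 (adjusted p = 1.13e-07 and 0.0454), and no microbead library of either genotype reached the sham range. The interaction of 2.59 ± 0.50 (adjusted p = 0.0211) is therefore a smaller fall in APOE4. It missed the threshold in 16 of 26 settings (adjusted p from 0.00182 to 0.989), including limma-voom (0.28). Leaving out 1 library ended it for APOE3 sham 1 or 4, APOE3 microbead 1 or 2, APOE4 sham 1, 2 or 3 and APOE4 microbead 1 (adjusted p 0.0509 to 0.134). The other genes of prostaglandin and leukotriene metabolism gave no call, 1 of 14 tested in all. Lta4h, which makes leukotriene B4, was at -1.08 ± 0.56 (adjusted p = 0.63), and the leukotriene receptor Cysltr1 at 1.41 ± 0.73 (0.631).

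Gpr34 is a receptor for lysophosphatidylserine and a homeostatic microglial marker (ENSMUSG00000040229, chromosome X, 13632089 to 13640858). It was at 431, 496, 372 and 415 CPM in APOE3 sham and 38.5, 126 and 143 in APOE3 microbead. The APOE4 values were 271, 280, 331 and 285 CPM after sham and 272, 241 and 232 after microbeads. APOE3 microbead was the lowest group and APOE3 sham the highest, and the APOE4 sham libraries all lay below the APOE3 sham ones (log2 -0.55 ± 0.23, adjusted p = 0.962). Among all genes tested, 3.54% kept the 2 sham groups apart in this way. Gpr34 fell by 2.04 ± 0.27 in APOE3 and was at -0.23 ± 0.25 in APOE4, with an interaction of 1.80 ± 0.36 (adjusted p = 0.0367). Part of that value is the lower start in APOE4 sham: after microbeads alone the genotypes differed by 1.25 ± 0.28 (adjusted p = 0.0287). This was the least stable of the 7 calls, lost in 17 of 27 alternatives (adjusted p from 0.000205 to 0.989). Leaving out 1 library ended it for 10 of the 14, all but APOE3 sham 3 and the 3 APOE3 microbead libraries (adjusted p 0.0557 to 0.134).

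Fgr encodes a Src-family tyrosine kinase of myeloid cells (ENSMUSG00000028874, chromosome 4, 132974095 to 133001910). Its level in APOE3 rose from 3.43, 3.51, 10.2 and 1.2 CPM after sham to 58.8, 70.2 and 44.6 after microbeads. In APOE4 it stayed between 12.5 and 19.0 CPM in all 7 libraries, at 16.2, 18.2, 12.5 and 17.0 after sham and 14.1, 18.3 and 19.0 after microbeads. The APOE4 values thus lay between the 2 APOE3 groups and overlapped neither. The reads were few: APOE3 had 10 after sham and 114 after microbeads, and APOE4 had 36 and 29. The change was 3.75 ± 0.45 in APOE3 and 0.11 ± 0.43 in APOE4, and the interaction was -3.64 ± 0.65 (95% interval -4.96 to -2.32, adjusted p = 0.0155). The genotypes differed by 1.89 ± 0.50 after sham (adjusted p = 0.56) and by -1.75 ± 0.41 after microbeads (adjusted p = 0.0396), so both gaps enter the value. In 10 of 25 settings it was not called (adjusted p from 0.000608 to 0.869), including limma-voom (0.0685) and the fits without APOE3 microbead 2 (0.0584), APOE4 sham 1 (0.0504), APOE4 sham 2 (0.0581) or APOE4 microbead 1 (0.064). Among 20 Src-family kinases and partners tested, edgeR called Fgr and DESeq2 called Tyrobp, and the median was 0.02 (-0.20 with library totals and -0.41 on log2 TPM). Dok1, an adaptor that dampens such kinases, was at 1.15 ± 0.48 (adjusted p = 0.484).

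Capg encodes a protein that caps actin filaments in macrophages (ENSMUSG00000056737, chromosome 6, 72544391 to 72562983). APOE3 libraries had 27.5, 33.4, 40.6 and 57.6 CPM after sham and 167, 91.3 and 96.3 after microbeads. APOE4 libraries had 55.6, 61.3, 42.7 and 45.3 after sham and 6.04, 31.6 and 27.7 after microbeads. The genotypes moved in opposite directions: all 3 APOE3 microbead libraries lay above, and all 3 APOE4 microbead libraries below, every sham library of their own genotype. Capg rose by 1.52 ± 0.32 in APOE3 (adjusted p = 0.00336), while -1.19 ± 0.38 in APOE4 did not pass (adjusted p = 0.31). The interaction was -2.72 ± 0.50 (95% interval -3.73 to -1.70, adjusted p = 0.0155). It lost its call in 12 of 26 alternatives (adjusted p from 7.14e-05 to 0.989), among them the fits without APOE3 sham 1 (0.0547), APOE3 microbead 1 (0.0615), APOE4 sham 1 (0.0591), APOE4 sham 2 (0.0599) and APOE4 microbead 1 (0.064). The list of actin regulators had 1 call among 32 tested, with a median of -0.24 that turned to 0.07 without both APOE3 microbead 1 and 2 and was -0.04 with the monocyte covariate and -0.11 without APOE3 microbead 2. Tmsb4x, which binds actin monomers, was at -0.77 ± 0.28 (adjusted p = 0.376), and the scaffold Iqgap1 at -1.55 ± 0.62 (0.457).

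**Figure D2:**
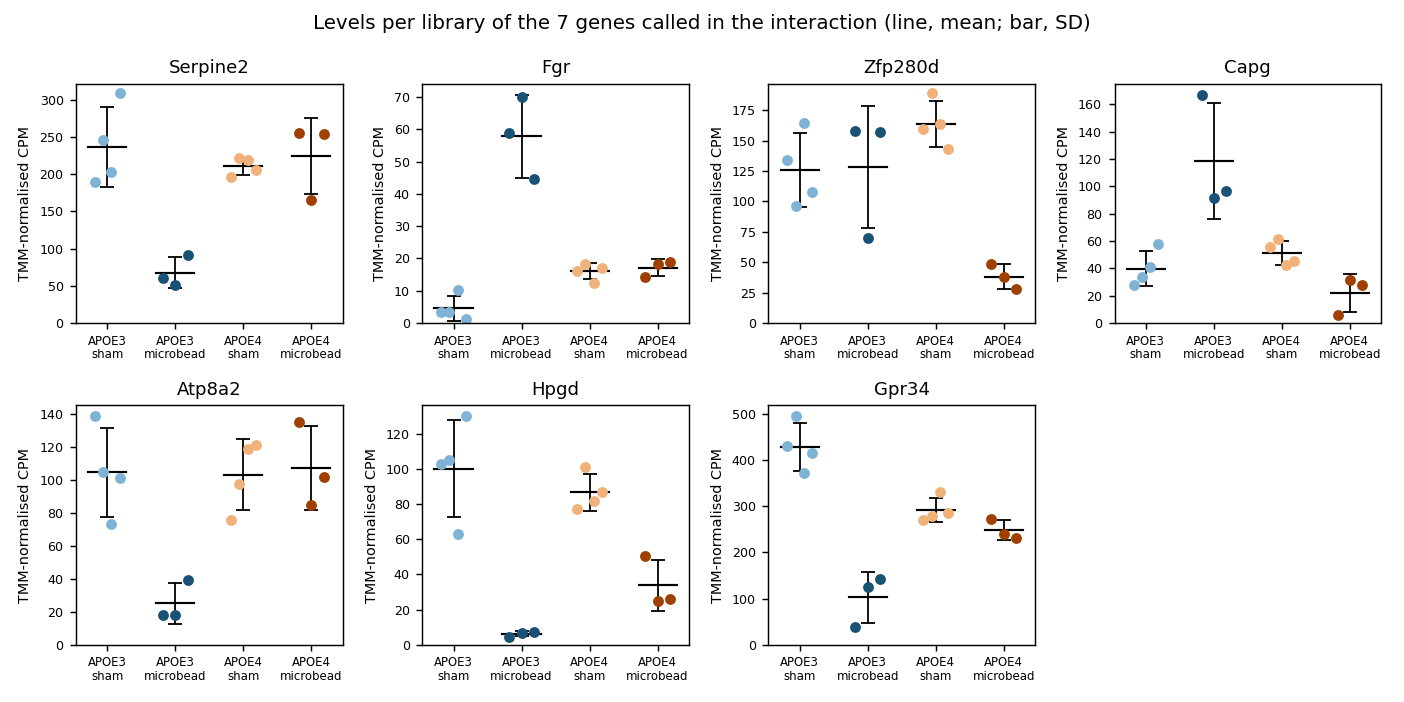
TMM-normalised CPM of the 7 called genes in each library (points), by group (x axis), with the group mean (line) and SD (bar). APOE3 microbead libraries stand apart from the other groups for Serpine2, Atp8a2, Hpgd, Gpr34, Fgr and Capg, and APOE4 microbead libraries for Zfp280d.

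The promoters of Fgr and Capg, the 2 called genes that rose in APOE3, are shown because the pair moved together and because each holds a match to an ETS core, the letters bound by the ETS family of transcription factors that includes PU.1. The sequences are those of RefSeq (GRCm38.p6), from 250 bases before to 50 after the annotated start, with the match in capitals. Fgr lies at chr4:132973845-132974144 on the + strand and Capg at chr6:72549397-72549696 on the + strand. The Capg stretch lies inside the gene span given above, which begins at 72544391. The start used for Capg is thus not the first base of that span.
Fgr: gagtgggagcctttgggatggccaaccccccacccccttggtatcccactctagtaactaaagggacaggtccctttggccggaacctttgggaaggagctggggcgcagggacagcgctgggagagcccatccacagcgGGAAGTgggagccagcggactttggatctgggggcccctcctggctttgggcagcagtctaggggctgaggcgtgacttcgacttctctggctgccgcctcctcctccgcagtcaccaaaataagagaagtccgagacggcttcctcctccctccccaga
Capg: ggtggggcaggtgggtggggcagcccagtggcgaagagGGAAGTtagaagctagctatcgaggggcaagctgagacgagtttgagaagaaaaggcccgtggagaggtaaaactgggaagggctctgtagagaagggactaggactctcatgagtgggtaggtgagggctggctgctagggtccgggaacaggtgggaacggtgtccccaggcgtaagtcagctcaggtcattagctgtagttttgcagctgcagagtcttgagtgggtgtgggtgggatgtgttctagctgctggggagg
The searched letters were GGAAGT for the ETS core, GAGGAAGT for PU.1 (which contains the former), TGANTCA for AP-1 and CACGTG for the E-box, with the MEF2 site and the interferon-stimulated response element besides, on both strands. The ETS core began 110 bases before the start in Fgr and 212 before it in Capg, and 23.8% of 32851 promoters of the same length hold it. No other of these motifs was found in the 5 promoters of called genes in the table. Serpine2, Hpgd and Zfp280d held none of the 6. These matches describe letters only.

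Zfp280d encodes a zinc-finger protein (ENSMUSG00000038535, chromosome 9, 72274860 to 72363777) and was the 1 called gene whose change lay in APOE4. Levels were 134, 96.6, 165 and 108 CPM in APOE3 sham and 158, 70.2 and 157 in APOE3 microbead. APOE4 libraries had 160, 189, 164 and 143 after sham and 48.3, 38.2 and 27.7 after microbeads. The 3 APOE4 microbead libraries were the lowest of the 14, and the other 3 groups overlapped. It fell by 2.11 ± 0.29 in APOE4 (adjusted p = 0.000262) and was at 0.01 ± 0.26 in APOE3, giving an interaction of -2.12 ± 0.39 (95% interval -2.91 to -1.33, adjusted p = 0.0155). This was the most stable of the 7, lost in 7 of 26 alternatives (adjusted p from 0.00019 to 0.579), among them the fits without APOE3 microbead 1 (0.0615), APOE4 sham 1 (0.0504), APOE4 sham 2 (0.0581), APOE4 microbead 1 (0.064) and APOE4 microbead 3 (0.0936).

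The reads behind that value were mostly not on protein-coding transcripts. Of all Zfp280d reads, 82.3% (789) were estimated on Zfp280d-207, a processed transcript of 412 bases in 3 exons, and 6.32% on protein-coding transcripts. On Zfp280d-207, APOE3 had 233 reads after sham and 196 after microbeads. APOE4 had 329 after sham and 30.7 after microbeads, where the 3 libraries had 15.5, 15.2 and 0. The protein-coding transcripts together had 32.7 and 1.39 reads in APOE3 and 11.5 and 15 in APOE4. The fall in APOE4 was thus on the short transcript, and the coding reads were too few for the gene to be tested on them alone. The third exon is shown because most bases that this transcript shares with other genes lie there (175 bases in all). Its capitals mark bases shared with at least 100 other genes, by matches of at least 100 bases at an identity of at least 90%, and they cover all 154 bases of the exon (chr9:72313525-72313678, + strand, GRCm38).
Zfp280d-207 exon 3: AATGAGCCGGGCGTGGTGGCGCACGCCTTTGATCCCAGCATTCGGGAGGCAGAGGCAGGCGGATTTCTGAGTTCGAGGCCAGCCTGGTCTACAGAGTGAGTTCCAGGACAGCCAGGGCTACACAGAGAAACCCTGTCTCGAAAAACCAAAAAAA
In all, transcripts of 1979 other genes matched Zfp280d-207 in this way, and its first 258 bases held no base shared with as many as 100 genes. By contrast, the main transcripts of Serpine2, Fgr, Capg, Hpgd and Gpr34 matched 0 other genes. An estimated count divides reads that fit several transcripts by a model, and how reads of the third exon were divided was not tested.

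Beside these calls stand the monocyte markers given above, which were highest in APOE3 microbead. With their summed level as a covariate in the fit, edgeR called 0 genes (356 at an unadjusted p under 0.05), and the interaction became 1.12 for Serpine2, 1.11 for Atp8a2, 1.62 for Hpgd, 1.00 for Gpr34, -3.09 for Fgr, -1.94 for Capg and -2.07 for Zfp280d. Without both APOE3 microbead 1 and 2, the libraries highest in these markers, 1 gene was called (Zfp280d, -2.42), and the fit rests on 1 APOE3 microbead library, whose spread is taken from the other groups. There the values were 1.49 for Serpine2, 1.48 for Atp8a2, 2.42 for Hpgd, 1.37 for Gpr34, -3.23 for Fgr and -2.43 for Capg. The summed monocyte level was 353 to 1733 CPM in APOE3 microbead and 76.5 to 253 CPM in the other groups. It thus largely coincides with that group, and the covariate cannot tell the level and the group apart.

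The genes next in rank did not pass. Above 0, P2ry12, the purinergic receptor of resting microglia, was at 833, 907, 789 and 1064 CPM in APOE3 sham and 167, 212 and 383 in APOE3 microbead. In APOE4 it was 677, 790, 838 and 757 after sham and 575, 550 and 584 after microbeads. The APOE4 microbead libraries lay below their sham libraries and above all APOE3 microbead ones. It fell by 1.82 ± 0.22 in APOE3 and was at -0.42 ± 0.21 in APOE4, with an interaction of 1.4 ± 0.30 (95% interval 0.78 to 2.01, adjusted p = 0.0603). DESeq2 and limma-voom both called it (adjusted p = 0.00149 and 0.0257), and over all alternatives it was called in 5 of 27 (adjusted p from 0.00112 to 0.989). The lysosomal protease gene Ctsf was at 129, 116, 167 and 162 CPM in APOE3 sham and 31.7, 70.2 and 78.4 in APOE3 microbead, against 117, 124, 117 and 113 and then 185, 113 and 169 in APOE4. Its interaction was 1.62 ± 0.35 (adjusted p = 0.0603).

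Plxdc2, Slco2b1, Slc40a1 and Snn had the same form, a fall called in APOE3 and a smaller change in APOE4. Plxdc2, a plexin-domain membrane protein, gave 1.41 ± 0.32 (adjusted p = 0.0773), from -1.52 in APOE3 and -0.11 in APOE4. The organic anion transporter Slco2b1 gave 1.10 ± 0.26 (0.0959), from -0.97 and 0.13. Slc40a1, ferroportin, which exports iron, gave 2.1 ± 0.53 (0.162), from -1.92 and 0.18. Snn, with 7 reads over APOE3 microbead, gave 2.84 ± 0.68 (0.115). Nup62, a nuclear pore protein, differed in form: its APOE3 change of -1.12 ± 0.42 and its APOE4 change of 1.18 ± 0.41 did not pass, and the interaction was 2.30 ± 0.59 (0.174). Plxdc1 was at 1.49 ± 0.39 (0.188), from -0.89 and 0.60, neither of which passed.

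Below 0, Axl, a receptor tyrosine kinase for the uptake of apoptotic cells and a disease-associated marker, was at 46.4, 47.4, 56.9 and 93.6 CPM in APOE3 sham and 328, 365 and 237 in APOE3 microbead. In APOE4 it was 113, 113, 121 and 126 after sham and 141, 218 and 237 after microbeads. The 4 groups were nearly in steps, with APOE4 sham above APOE3 sham and APOE4 microbead just below APOE3 microbead. Its interaction was -1.57 ± 0.34 (adjusted p = 0.0603), from 2.32 ± 0.24 in APOE3 and 0.75 ± 0.24 in APOE4, with a sham gap of 0.93 ± 0.24 (adjusted p = 0.536). Tyrobp, the adaptor of TREM2, was at 565, 496, 669 and 543 CPM in APOE3 sham and 749, 748 and 686 in APOE3 microbead. It was 946, 1042, 880 and 960 in APOE4 sham and 563, 632 and 597 in APOE4 microbead. APOE4 sham was the highest group, above all other libraries, and neither genotype's change passed (0.36 ± 0.17 and -0.68 ± 0.17). The interaction of -1.04 ± 0.24 (adjusted p = 0.0773) holds a sham gap of 0.75 ± 0.15 (adjusted p = 0.152).

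Most further genes below 0 had risen in APOE3. Pstpip1, a cytoskeletal adaptor of leukocytes, was at 22.3, 12.3, 18.3 and 24.0 CPM in APOE3 after sham and 43.0, 62.4 and 42.8 after microbeads. APOE4 had 21.5, 23.2, 24.9 and 22.6 after sham and 12.1, 11.6 and 10.4 after microbeads. The microbead groups lay on opposite sides of sham, and the interaction of Pstpip1 was -2.36 ± 0.52 (adjusted p = 0.0603). Csf2rb, the shared beta chain of the GM-CSF receptor, gave -1.30 ± 0.29 (0.0717), from 1.57 in APOE3 and 0.28 in APOE4. The ferritin light chain Ftl1, whose reads may be shared with processed copies, gave -1.13 ± 0.26 (0.0773), from 1.32 and 0.19. Mt1, a metallothionein that binds zinc, gave -2.24 ± 0.54 (0.115), from 1.65 and -0.59. Cox6b1, a subunit of cytochrome oxidase, gave -1.76 ± 0.42 (0.115), where the APOE3 change of 0.87 ± 0.29 did not pass.

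Homeostatic genes lay above 0 as a list. Of 36 tested, edgeR called 1 (Gpr34) and DESeq2 9, all above 0, while 34 had a value above 0. At an unadjusted p under 0.05, 18 were above 0 and 0 below, against 3.48% of all genes above and 4.68% below. The counts of every list are to be read against these shares. Calls within a genotype stand beside 269 higher and 123 lower in APOE3, and 13 and 2 in APOE4, of 7605 genes. DESeq2 calls stand beside 5.1% of the 1117 genes it gave an adjusted p, and members without one could not be called. The median interaction was 0.57, beside 0.01 over all genes, from -0.68 in APOE3 (16 called lower) and -0.13 in APOE4 (0 called). The summed level was 35190 ± 3246 CPM in APOE3 sham (SD, n = 4) and 14365, 19285 and 24125 in APOE3 microbead. In APOE4 it was 34952 ± 1886 after sham and 29642, 29893 and 30668 after microbeads. Every APOE4 microbead library lay below its sham libraries and above every APOE3 microbead library. Slc2a5, a fructose transporter, was at 1.4 ± 0.37 (adjusted p = 0.188). Smaller values stood for Tmem119 (0.61 ± 0.30, 0.62) and the TGF-beta receptor Tgfbr1 (0.44 ± 0.29, 0.782). Fcrls, the antigen of the sort, was at 0.81 ± 0.35 (0.53), with 0.00 ± 0.24 in APOE3, and its sham groups did not overlap. They held 177, 163, 280 and 265 CPM in APOE3 against 77.2, 89.4, 112 and 138 in APOE4, and the levels after microbeads were 170, 274 and 218 in APOE3 and 229, 193 and 126 in APOE4. The list's median stayed between 0.25 and 0.80 in all alternatives, with 0.25 under the monocyte covariate.

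The purinergic and lysophospholipid receptors share 6 of their 18 tested genes with that list, Gpr34, P2ry12, P2ry13, P2ry6, Cx3cr1 and Entpd1, so the lists are not separate. Of the 18, edgeR called 1 and DESeq2 4, and 6 were above 0 and 1 below at an unadjusted p under 0.05, with a median of 0.43 that turned to -0.08 on log2 TPM. P2ry13, an ADP receptor, was at 1.07 ± 0.29 (adjusted p = 0.205), from -1.45 in APOE3 and -0.38 in APOE4. Among 25 transcription factors of microglial identity the median was -0.06, with no call and 3 above and 1 below at an unadjusted p under 0.05. Mef2c was at 0.92 ± 0.30 (adjusted p = 0.289) and Sall1, a repressor that keeps microglia apart from other macrophages, at 0.84 ± 0.30 (0.357). Bhlhe40 was at -4.39 ± 1.27 (0.212), with 0 to 9.97 CPM in every group but APOE3 microbead (33.9, 26.7 and 39.2). For 17 genes of TGF-beta signalling the median was 0.23 with no call, and it turned to -0.02 with library totals as the scaling and -0.30 on log2 TPM.

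Disease-associated genes lay below 0 as a list. EdgeR called none of the 34 tested, and DESeq2 called 5, all below 0: Tyrobp, Axl, Cd63, Fth1 and Gpnmb (adjusted p = 0.000559, 0.0038, 0.0317, 0.0348 and 0.0497). By edgeR, 15 were below 0 and 1 above at an unadjusted p under 0.05, and the median was -0.88, from 0.86 in APOE3 (16 called higher) and 0.42 in APOE4 (0 called). The summed level was 12938 ± 1047 CPM in APOE3 sham (SD, n = 4) and 13845 ± 545 in APOE4 sham, and it was 21986, 28217 and 20285 in APOE3 microbead and 16704, 18377 and 18729 in APOE4 microbead. Both genotypes lay above their sham libraries, and APOE3 microbead lay above APOE4 microbead. Spp1 was at 391, 400 and 246 CPM in APOE3 microbead, and at 0, 74.8 and 1.73 in APOE4 microbead, with at most 3.60 in any sham library. A single APOE4 microbead library thus carried Spp1, and the interaction had a wide interval (-11.42 to 5.48, adjusted p = 0.934).

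Lgals3 showed a like contrast, at 235, 183 and 143 CPM in APOE3 microbead and 6.04, 6.65 and 24.2 in APOE4 microbead, with 0 to 43.1 over the sham libraries (interaction -4.24 ± 1.24, adjusted p = 0.293). Itgax, the integrin chain CD11c, was at -1.86 ± 0.74 (0.484). Clec7a, the beta-glucan receptor, was at -1.07 ± 0.42 (0.441), though only 22.5% of its reads were on protein-coding transcripts. Lilrb4a, an inhibitory receptor with near-identical copies, was at -2.40 ± 0.67 (0.212), with only 7.55% of its reads on protein-coding transcripts. Of the 10 members above 0, Cadm1 (1.48) was the 1 at an unadjusted p under 0.05. The list's median was -0.41 with the summed monocyte marker level as a covariate and -0.33 without both APOE3 microbead 1 and 2. With any 1 library left out it ran from -0.95 to -0.67. The homeostatic median also changed under that covariate, from 0.57 to 0.25. The marker level largely coincides with APOE3 microbead, so the covariate cannot tell the level and the group apart.

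Antigen presentation by MHC class II also lay below 0. Of 9 genes tested, edgeR called 0 and DESeq2 4, all below 0, while 6 were below and 1 above at an unadjusted p under 0.05, with a median of -0.81. Leaving out APOE3 microbead 2 gave a median of -0.52, leaving out APOE3 microbead 1 as well gave -0.49, and the stricter filter on low counts gave -2.77. H2-Ab1 was at 167, 100, 228 and 229 CPM in APOE3 sham and 1260, 2517 and 736 in APOE3 microbead, against 124, 142, 155 and 54.7 in APOE4 sham and 92.5, 199 and 128 in APOE4 microbead. The APOE3 microbead libraries were high and far apart from each other, and the other groups overlapped. The interaction of H2-Ab1 was -2.82 ± 0.68 (adjusted p = 0.205), and that of H2-Aa was -3.27 ± 0.80 (0.212). The DESeq2 calls include both (adjusted p = 0.0038 each), and over 27 alternatives the adjusted p ran from 0.0038 to 0.989 for H2-Ab1 and to 0.997 for H2-Aa. H2-Ob, a chain of a class II regulator typical of B cells, was on the other side, at 1.32 ± 0.43 (0.289). Beside it, the 8 B cell markers summed to 301 to 331 CPM after sham and 113 to 153 after microbeads in APOE3. In APOE4 they summed to 270 to 359 and 188 to 260. Their part in these values was not tested.

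Ribosomal protein genes lay below 0 as a list. Of 82 tested, 0 were called by edgeR, 55 were below 0 and 1 above at an unadjusted p under 0.05, and 78 had a value below 0. DESeq2 called 16 of them. The median was -0.82, from 0.90 in APOE3 and 0.09 in APOE4, and it stayed between -1.19 and -0.64 in all alternatives. Summed levels were 11793, 8768, 11821 and 11065 CPM in APOE3 sham and 21841, 20643 and 17758 in APOE3 microbead. In APOE4 sham they were 12719, 13117, 12989 and 12284, above every APOE3 sham library, and the APOE4 microbead mean was 13767 ± 1303 (SD, n = 3). The sham gap, which enters the interaction, had a median of 0.27. Rplp2 was at -1.13 ± 0.28 (adjusted p = 0.159) and Rpl13 at -1.13 ± 0.29 (0.162). Reads of these genes can be shared with their many processed copies.

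Genes of energy metabolism and protein turnover lay on the same side, with no call by edgeR. For 16 glycolytic genes the median was -0.59, with 7 below and 0 above at an unadjusted p under 0.05. Pgk1, which makes ATP in glycolysis, was at -1.65 ± 0.44 (adjusted p = 0.188) and Aldoa at -1.09 ± 0.30 (0.205), both called higher in APOE3. DESeq2 called Aldoa (adjusted p = 0.0277, over 27 alternatives 0.0277 to 0.989). For 75 nuclear genes of oxidative phosphorylation the median was -0.54 (13 below, 0 above), for 33 proteasome genes -0.43 (7 below, 0 above) and for 30 translation factors -0.33 (4 below, 0 above). Without both APOE3 microbead 1 and 2 the oxidative phosphorylation median was -0.18 and that of translation factors -0.20. With the monocyte covariate the former was -0.22, and the proteasome median was -0.23 without APOE4 sham 3. Iron and redox genes, 21 tested, had a median of -0.65 with 7 below and 1 above. That median was -0.24 without both APOE3 microbead 1 and 2, -0.32 with the monocyte covariate, -0.42 without APOE3 sham 2 and -0.40 without APOE3 microbead 2. DESeq2 called 2 of the 21, Ftl1 and Fth1. Txn1, thioredoxin, was at -2.28 ± 0.65 (0.205), and Slc40a1 was the 1 above. The ends of iron handling thus differed in sign: ferritin Ftl1 below 0 and the exporter ferroportin above it.

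**Figure D3:**
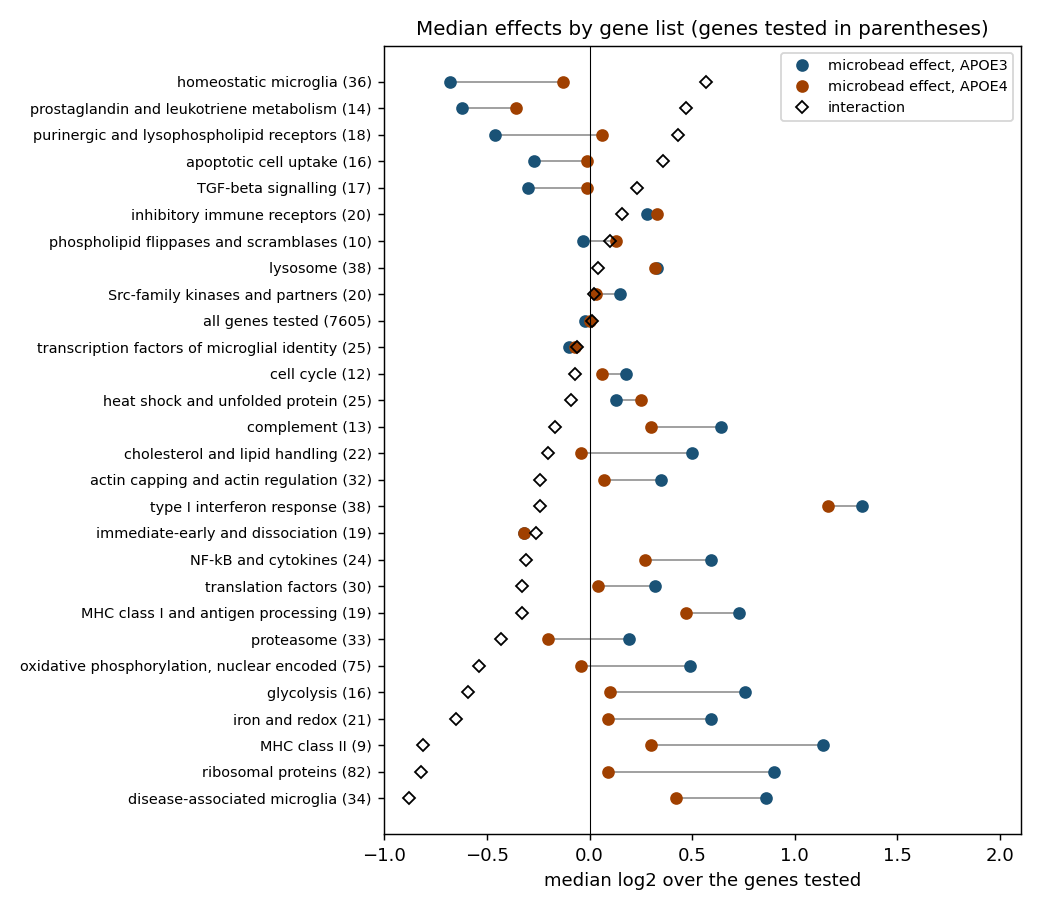
Median log2 microbead effect in APOE3 (dark blue) and APOE4 (brown) and median interaction (open diamonds) for the gene lists (y axis, genes tested in parentheses), with all 7605 genes for scale. The interaction runs from -0.88 for disease-associated genes to 0.57 for homeostatic genes, and the interferon list has high medians in both genotypes.

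Interferon genes had high medians in both genotypes. Of 38 tested, 14 were called higher in APOE3 and 3 in APOE4, beside 269 and 13 of all 7605 genes. In the interaction edgeR and DESeq2 called 0, 1 was below 0 and 0 above at an unadjusted p under 0.05, and the median was -0.24, from 1.33 in APOE3 and 1.16 in APOE4. The median turned to 0.42 without both APOE3 microbead 1 and 2 and to 0.33 with the monocyte covariate. With 1 library left out it ran from -0.56 (without APOE4 microbead 3) to 0.00 (without APOE4 microbead 1). Irf7, the factor that amplifies interferon, was at 3.43, 8.79, 4.07 and 19.2 CPM in APOE3 sham and 70.1, 75.7 and 37.4 in APOE3 microbead. In APOE4 it was 30.5, 13.2, 23.1 and 18.9 after sham and 52.3, 86.4 and 183 after microbeads. Both microbead groups lay above all sham libraries and overlapped each other. The interaction was -0.31 ± 0.67 (95% interval -1.72 to 1.10, adjusted p = 0.965), so a difference of 2-fold either way is within the interval. Oas2, an antiviral enzyme, was at 0.55 ± 0.92 (-1.43 to 2.53, adjusted p = 0.957).

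C4b, a complement gene called in both genotypes, was at 37.8, 5.27, 22.4 and 16.8 CPM in APOE3 sham and 466, 552 and 606 in APOE3 microbead. In APOE4 it was 8.97, 8.28, 19.6 and 5.66 after sham and 139, 331 and 275 after microbeads. The microbead groups did not overlap each other, with APOE4 the lower, but its sham libraries were also lower on average. It rose by 4.72 ± 0.41 in APOE3 and 4.52 ± 0.45 in APOE4, and the interaction was -0.20 ± 0.69 (95% interval -1.66 to 1.27, adjusted p = 0.981). Reads of C4b can be shared with C4a. Of 13 complement genes tested, edgeR and DESeq2 called 0, with a median of -0.17, and C3 was at -3.78 ± 1.31 (adjusted p = 0.323), at 38.5, 44.5 and 25 CPM in APOE3 microbead and at most 8.97 in any other library.

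Other genes that rose in APOE4 had interactions on both sides of 0. Itgam, the CD11b chain of the sort, was at 216, 216, 144 and 315 CPM in APOE3 after sham and 344, 398 and 378 after microbeads. APOE4 had 201, 225, 253 and 174 after sham and 519, 359 and 408 after microbeads. The microbead groups overlapped and lay above sham, and the interaction was 0.27 ± 0.31 (95% interval -0.37 to 0.90, adjusted p = 0.922). Grn, progranulin, rose by 0.75 ± 0.16 in APOE4 (adjusted p = 0.0488) and was at 0.49 ± 0.16 in APOE3 (0.0893), with an interaction of 0.26 ± 0.23 (-0.22 to 0.74). Fcgr2b, an inhibitory Fc receptor, was at -0.34 ± 0.32 (-0.99 to 0.31), and Fcgr4, an activating one, at -0.47 ± 0.50 (-1.49 to 0.56). Cd72, an inhibitory lectin, leaned furthest: it rose by 2.99 ± 0.28 in APOE3 and 1.52 ± 0.27 in APOE4, and the interaction of -1.46 ± 0.40 (-2.27 to -0.65) did not pass in edgeR (adjusted p = 0.205) and did in DESeq2 (0.0277, over 27 alternatives 0.0277 to 0.989). Adora1, an adenosine receptor, was at -1.10 ± 0.59 (-2.31 to 0.12), and Cd300lf, an inhibitory receptor, at -0.98 ± 0.52 (-2.04 to 0.09). In all, 13 genes were called higher in APOE4, with a median of 1.76 there and 2.23 in APOE3, and 12 of them were called in APOE3 too. Of these 13, edgeR called 0 in the interaction, with 1 at an unadjusted p under 0.05, and DESeq2 called Cd72. A p that misses the threshold does not show equal responses.

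**Figure D4:**
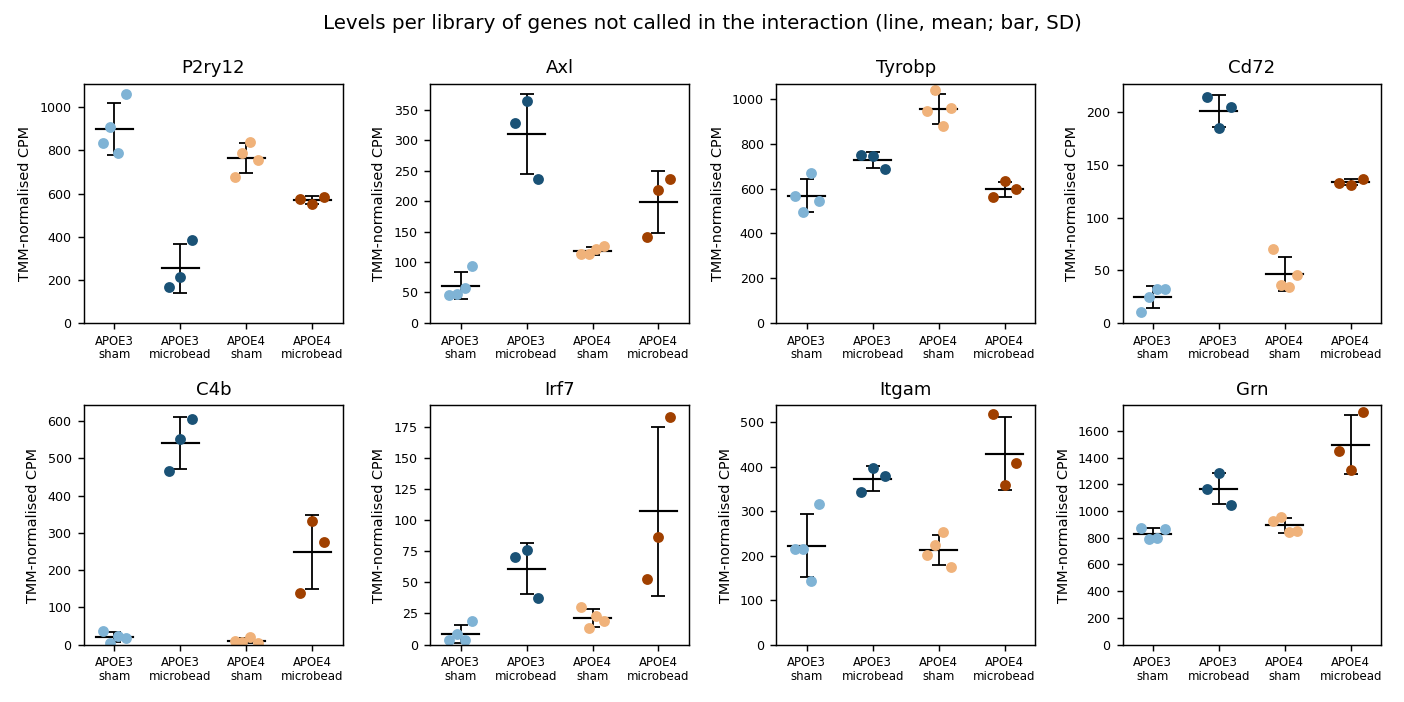
TMM-normalised CPM per library (points) of 8 genes not called in the interaction, by group (x axis), with the group mean (line) and SD (bar). For P2ry12, Axl, Tyrobp and Cd72 the 2 microbead groups do not overlap, for C4b both are above sham with APOE4 lower, and for Irf7 and Itgam they overlap.

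Class I antigen presentation lay between these patterns. Of 19 genes tested, edgeR and DESeq2 called 0, 2 were below and 0 above at an unadjusted p under 0.05, and the median was -0.33, from 0.73 in APOE3 and 0.47 in APOE4. H2-D1, a classical class I chain with near-identical relatives, was at 562, 485, 659 and 595 CPM in APOE3 sham and 1450, 1982 and 1355 in APOE3 microbead, against 845, 941, 695 and 509 and then 1111, 1207 and 1478 in APOE4. The interaction was -0.71 ± 0.28 (adjusted p = 0.45), and H2-K1 was at -0.60 ± 0.31 (0.63). The list's median was 0.13 without both APOE3 microbead 1 and 2 and 0.04 without APOE3 microbead 2. Lysosomal genes, 38 tested, had a median of 0.04 (-0.18 with library totals and -0.31 on log2 TPM), with 4 above and 2 below at an unadjusted p under 0.05. EdgeR called 0 of them and DESeq2 3. They included Ctsf above 0 and Atp6v0c, a proton pump subunit, at -0.89 ± 0.26 (0.205). The NF-kB and cytokine list, 24 tested, had a median of -0.31 with 0 above and 2 below, and the chemokine Ccl5 was at -2.98 ± 0.85 (0.217).

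Across genes, the distance between the 2 microbead groups was more often complete than that between the sham groups. The APOE3 and APOE4 microbead libraries did not overlap for 1101 genes (14.5%), and the sham libraries for 269 (3.54%), but groups of 3 separate more readily than groups of 4. All 7 called genes kept the microbead groups apart, and 2 of them, Fgr and Gpr34, the sham groups as well. The 7 were called on these same values, so this is a description.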

How the data were processed

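Per the submitters' processing notes, Salmon 1.4.0, mm10, R 4.0.3 and DESeq2 1.30.1 were used. The deposited files give, per library, estimated counts for each transcript, and a deposited table gives TPM (a length-scaled transcript abundance) per gene for the whole series. TPM recomputed from each library lay within 1% of its own column for 99.22% to 99.37% of genes, and of another column for at most 2.11%. With GENCODE M21 (GRCm38), 115945 of 116945 transcripts were assigned to 35449 genes, and the other 1000, at most 0.497% of a library's reads, were left out. Counts were summed per gene and rounded. Genes were kept with filterByExpr (minimum count 10, total 15). One edgeR model (4.0.16, R 4.3.3) with 4 group means, TMM scaling and robust quasi-likelihood fitting gave all contrasts. The common biological coefficient of variation was 0.275. Tests were two-sided, with Benjamini-Hochberg adjustment over all 7605 genes, and an adjusted p printed beside a gene is from this test unless another tool is named. SE derives from the F statistic, and 95% intervals use the model's degrees of freedom. The code was tested on simulated data.

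The members, the 29 gene lists and 15 marker lists were chosen with earlier results of these data known. Named genes were all those called, the 12 with the smallest p on each side (0 passed over as predicted genes or pseudogenes), up to 3 list members by p, 14 fixed genes, genes called by both DESeq2 1.42.0 and limma-voom (limma 3.58.1), and, outside that rule, genes called in APOE4. Names such as Cadm1 were added after their values were seen. Lists are described by counts and medians, with no test. Matches between transcripts used blastn 2.17.0. The 27 alternatives changed scaling, filter, tool, offsets, libraries, the replicate block, the monocyte covariate or, added after seeing the data, the transcripts used. Libraries with the same replicate number did not deviate together (correlation of deviations -0.144 to 0.099 over 19 same-number pairs, -0.206 to 0.255 over other pairs). This does not show whether a number stands for a shared animal, litter or day. No replicates agreed within sampling noise (chi-square per degree of freedom 2.17 to 6.43).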

Additional observations from a re-analysis of the deposited data

Results flagged for a closer look

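The difference in microbead effect between APOE4 and APOE3 was past the threshold of edgeR's quasi-likelihood test for 7 genes. On the log2 scale it was 1.91 for Serpine2, 2.13 for Atp8a2, 2.59 for Hpgd and 1.80 for Gpr34, which fell less in APOE4 or not at all. It was -3.64 for Fgr, -2.72 for Capg and -2.12 for Zfp280d, the last with 82.3% of its reads on a short transcript whose last exon is shared with many genes.

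Single libraries far from the rest of their group were looked for in 68 groups of named genes with 4 libraries. Mt1, the metallothionein, gave both such cases: 22.8 CPM in APOE3 sham 4, above 12.2 to 13.7 in the other 3, and 42.7 CPM in APOE4 sham 3, above 18.9 to 19.9. The gap took 0.855 and 0.958 of the group's range. Chance alone marks about 1 in 20 groups.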

How the results depend on the processing

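Against the 7 genes called, the count was 2 with library totals as the scaling, 29 with no filter on low counts, 57 with DESeq2 and 3 on log2(TPM + 1), which shared 1 of the 7. It was 0 with length offsets (555 at an unadjusted p under 0.05), 0 with the monocyte covariate (356) and 0 with protein-coding transcripts only (484, over 6057 genes), and 1 without both APOE3 microbead 1 and 2. The labels do not say whether a replicate number is shared between groups. With the replicate block the count was 3 (Serpine2, Fgr and Zfp280d). With 1 library left out it ranged from 0 to 30. RLE size factors (7), satellite genes left out (8), a stricter filter (9) and limma-voom (6) stayed within 1.5 times. Fits with libraries left out, another filter, other transcripts or satellite genes left out tested other numbers of genes, the rest that used counts the same 7605. The cause of each change was not tested. The median over all genes was -0.21 with library totals and -0.29 on log2 TPM, so list medians under these scalings are to be read against those values.

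Some values turned sign, among them values far from 0 with wide errors (Mcm6 at 1.17 ± 1.01, Smad3 at 1.06 ± 0.47 and H2afz at -0.97 ± 0.65 as reported). On log2 TPM these were Tgfbr1 (-0.28), Itgam (-0.19), Gcnt2 (-0.12), Grn (-0.16), Tmem30a (-0.10) and Mcm6 (-0.32). With the monocyte covariate they were Itgam (-0.20), Smad3 (-0.20) and Tmem30a (-0.04). Without both APOE3 microbead 1 and 2 they were Irf7 (0.42), Fcgrt (0.12) and H2afz (0.29). C4b turned without APOE3 sham 2 (0.11), APOE4 sham 3 (0.27) or APOE4 microbead 1 (0.09), Irf7 without APOE4 microbead 1 (0.01) or with protein-coding transcripts only (0.29), and Oas2 without APOE4 microbead 3 (-0.01). With 1 library left out, C4b ranged from -0.65 to 0.27, Irf7 from -1.12 to 0.01 and Oas2 from -0.01 to 1.19. Depth limits the low genes most: Fgr had 10 reads over APOE3 sham, and Apoe could not be tested.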

Other observations

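Chaperone genes with a larger microbead effect in APOE4 were not among the calls. Hsp90aa1, an inducible chaperone, was at 34.3, 21.1, 71.1 and 52.8 CPM in APOE3 after sham and 47.5, 64.6 and 60.6 after microbeads. APOE4 had 91.5, 67.9, 60.5 and 79.3 after sham and 28.2, 26.6 and 41.5 after microbeads. The APOE4 microbead libraries were below the APOE4 sham ones, and the interaction was -1.59 ± 0.45 (adjusted p = 0.205, edgeR). Dnajb1, of the same list, was at -1.12 ± 0.39 (0.323). Hspa1a, an inducible heat shock protein also raised by cell dissociation, was at -4.58 ± 1.31 (0.258). Its level was 0 to 8.05 CPM in APOE4 microbead and 19.9 to 58.7 in APOE4 sham. Over the 25 heat shock and unfolded protein genes tested, the median was -0.09, with 5 below 0 and 0 above at an unadjusted p under 0.05, and over 19 immediate-early and dissociation genes it was -0.26, with 1 below. Both medians changed sign in some alternatives, in 5 and 7 of them.

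Regulators of lipid synthesis were on the same side. Srebf1 was at -1.59 ± 0.59 (adjusted p = 0.382) and Srebf2 at -1.22 ± 0.52 (0.522), the latter with 53.8, 46.4, 35.6 and 35.9 CPM in APOE4 sham and 26.2, 13.3 and 24.2 in APOE4 microbead. Of 22 cholesterol and lipid handling genes tested, 5 were below 0 and 0 above at an unadjusted p under 0.05, with a median of -0.20 that turned to 0.29 without both APOE3 microbead 1 and 2 and to 0.26 with the monocyte covariate. For 16 genes of apoptotic cell uptake the median was 0.36, with Axl below 0 and Pros1, a ligand of its receptor family, at 1.04 ± 0.30 (0.212). Axl and Pros1 thus had opposite signs, with neither called by edgeR, while Mertk of the same list was at 0.18 ± 0.29 (0.953). The median of that list turned to -0.16 on log2 TPM.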
